A study of Mus musculus with 22 samples.

Results

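The 10 genes described here belong to the basal, or myoepithelial, layer of the mammary gland. They were the contractile proteins Tagln, Acta2, Myh11, Cnn1, Mylk and Myl9, the oxytocin receptor Oxtr, the basal keratins Krt5 and Krt14, and the transcription factor gene Trp63. Their CpG positions were those covered in all samples that lay in the gene body or within 2 kb of a RefSeq transcription start site (TSS) of the mm10 build. There were 266 such positions among the 1140639 positions covered in all 22 samples. The contractile genes held 207 of them, Oxtr 34, the keratins 19 and Trp63 6. Positions were kept by their coverage and place, and no methylation level entered that rule.

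Myoepithelial cells lie between the luminal epithelium and the basement membrane. During lactation they contract and squeeze milk along the ducts when oxytocin binds its receptor, and they do so with the proteins of smooth muscle. Myosin light chain kinase (Mylk) phosphorylates the regulatory light chain (Myl9) of the smooth muscle myosin heavy chain (Myh11), which then pulls on smooth muscle actin (Acta2), while calponin (Cnn1) and transgelin (Tagln) bind the actin filament. Krt5 and Krt14 pair into the keratin filaments of basal cells, and p63, the product of Trp63, is a regulator of basal identity. Smooth muscle of blood vessels uses the same contractile proteins. Methylation of CpG cytosines near a TSS usually goes with a silent gene, while gene bodies are often highly methylated.

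Methylation was measured by enhanced reduced representation bisulphite sequencing (ERRBS), which reads CpG-rich fragments released by a restriction enzyme. The MMTV-PyMT samples were bulk mammary tumors of 10 F1 females, heterozygous for a transgene in which the MMTV promoter drives the polyoma middle T oncogene in mammary epithelium. Their sires carried the transgene and their dams were FVB females. There were 2 samples at week 6 (hyperplasia), 3 at week 8 (adenoma/MIN, mammary intraepithelial neoplasia), 3 at week 10 (early carcinoma) and 2 at week 12 (late carcinoma with lung metastasis). The controls were normal mammary glands of 12 age-matched FVB females without the transgene, 3 at each week. The labels name no treatment. The authors removed 2 outlier samples. In bulk tissue, fewer cells of a type and a different methylation level within those cells cannot be told apart.

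Each sample held 1314077 to 1435757 positions at a mean coverage of 60.2 to 79.2 reads. Mean methylation over the shared positions was 24.6% to 25.2% in PyMT and 25.8% to 26.3% in FVB. One control, FVB week 8 replicate 2, stood apart on the second principal component, at 839 against -154 to -65 for the other controls. Counts and differences at week 8 are given with and without it. Promoters of luminal genes, which mark the other epithelial layer, were lower in PyMT for 12 of 15 measured and higher for 1, against 17.0% and 17.0% of all promoters. Their mean methylation was 5.05% to 8.09% in PyMT and 14.3% to 19.6% in FVB, without overlap, and none of it was tested as a source of the differences below.

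Sequences are shown for the CpG clusters with the 5 largest called differences, so that the measured sites can be seen in their context. A cluster is a run of at least 3 positions with gaps of at most 100 bp. Letters follow the strand of the gene, 5′ to 3′, in mm10, and capitals mark the CpGs that were measured. For Tagln, the stretch before the TSS and then the first 30 bases of the transcript are shown.
Myh11, intron 1, chr16:14290246-14290324, minus strand: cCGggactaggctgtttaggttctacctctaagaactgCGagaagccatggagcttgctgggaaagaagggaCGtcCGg
Mylk, intron 30, chr16:34996006-34996106, plus strand: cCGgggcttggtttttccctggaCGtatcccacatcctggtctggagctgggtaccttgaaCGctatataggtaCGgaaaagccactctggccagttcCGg
Myh11, coding exon 22 and intron 22, chr16:14219829-14219986, minus strand: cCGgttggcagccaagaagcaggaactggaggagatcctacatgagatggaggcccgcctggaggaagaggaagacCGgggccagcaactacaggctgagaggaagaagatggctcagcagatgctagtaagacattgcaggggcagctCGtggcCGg
Tagln, before the TSS, chr9:45936059-45936202, minus strand: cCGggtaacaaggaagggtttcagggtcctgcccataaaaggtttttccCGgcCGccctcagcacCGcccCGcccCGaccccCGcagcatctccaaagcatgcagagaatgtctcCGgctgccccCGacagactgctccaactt
Tagln, start of exon 1, chr9:45936029-45936058, minus strand: ggtgtctttccccaaatatggagcctgtgt
Mylk, intron 22, chr16:34967378-34967477, plus strand: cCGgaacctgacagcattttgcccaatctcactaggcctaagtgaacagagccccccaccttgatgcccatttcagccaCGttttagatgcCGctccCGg

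Promoter sequence is shown for Oxtr and Krt5, whose promoters differed between PyMT and FVB, and for Myl9, whose promoter holds a CArG box. The CArG box is the site of serum response factor, which drives many contractile genes. Each stretch is the 250 bases before the TSS in the RefSeq promoter table of GRCm38.p6, and capitals again mark measured CpGs.
Myl9, chr2:156775214-156775463, plus strand: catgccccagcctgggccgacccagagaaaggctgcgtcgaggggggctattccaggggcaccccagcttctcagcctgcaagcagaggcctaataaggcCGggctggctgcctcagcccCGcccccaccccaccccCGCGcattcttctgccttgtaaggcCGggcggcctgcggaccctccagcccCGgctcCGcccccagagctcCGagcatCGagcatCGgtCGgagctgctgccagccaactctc
Oxtr, chr6:112489826-112490075, minus strand: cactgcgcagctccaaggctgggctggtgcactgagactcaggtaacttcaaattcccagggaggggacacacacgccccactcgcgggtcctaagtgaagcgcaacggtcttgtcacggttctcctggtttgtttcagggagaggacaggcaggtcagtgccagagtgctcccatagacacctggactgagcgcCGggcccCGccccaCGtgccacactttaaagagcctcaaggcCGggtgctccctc
Krt5, chr15:101712906-101713155, minus strand: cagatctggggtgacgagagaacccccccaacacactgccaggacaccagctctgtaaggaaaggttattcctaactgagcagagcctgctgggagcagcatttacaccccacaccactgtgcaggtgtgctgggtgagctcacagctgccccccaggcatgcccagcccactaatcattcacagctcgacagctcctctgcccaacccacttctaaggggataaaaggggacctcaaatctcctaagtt

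CArG boxes were searched by name on both strands, on which the motif reads the same. The promoter table covers 250 bases before to 50 after each start, and 1.63% of its 32851 windows held a CArG box. It held windows for 7 of the 10 genes, and 1 of these, that of Myl9, had the motif, starting 161 bases before the TSS. The Tagln stretches above were read from the genome and held the motif at 112 bases before the TSS and at 11 bases after it. The measured CpGs of Tagln lay on both sides of these letters. None of the 5 measured Krt5 positions within 500 bp of the TSS fell in the 250 bases shown.

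The first comparison asked which single positions differed between PyMT and age-matched FVB at each stage. A position was called at a q-value under 0.01, from a logistic regression of pooled reads with Benjamini-Hochberg adjustment over all positions, and a difference of at least 10 percentage points. At hyperplasia 25 of the 266 member positions were called higher in PyMT and 26 lower, where all positions gave 2.62% and 6.01%. At adenoma/MIN 29 were called higher and 40 lower, against 3.20% and 7.10%. At early carcinoma the counts were 36 and 44, against 4.39% and 8.42%. At late carcinoma they were 34 and 44, against 4.44% and 8.53%. Without FVB week 8 replicate 2 the counts at adenoma/MIN were 24 higher and 22 lower, against 2.51% and 5.83%.

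The gains were mostly in one gene. Tagln had 16, 21, 23 and 24 of its 25 positions called higher from hyperplasia to late carcinoma and none called lower. Each strand of a CpG counts as a position, and 8 Tagln CpGs were measured on both strands. Mylk gave 7, 6, 8 and 9 of 86 called higher, and Cnn1 2, 1, 4 and 1 of 27. The losses were spread over Mylk (10, 17, 18 and 22 positions), Myh11 (9, 9, 12 and 12 of 41), Krt5 (3, 4, 6 and 5 of 17) and Myl9 (3, 3, 3 and 2 of 26). At all stages 18 member positions were called higher and 16 lower, where all positions gave 1.05% and 3.27%. Of the 18, Tagln held 15 and Mylk 3. No member position was called in both directions at different stages, and 144 were called at no stage. For both counts, those over all positions are given below, without FVB week 8 replicate 2. Without FVB week 8 replicate 2 the counts called higher at adenoma/MIN were 20 for Tagln, 3 for Mylk and 1 for Cnn1. Those called lower were 10 for Mylk, 7 for Myh11, 2 for Krt5 and 3 for Myl9. At all stages 18 member positions were then called higher and 15 lower, against 0.947% and 3.01%. In that setting 153 of the 266 were called at no stage, against 915951 of all 1140639 positions. None of the 266 was called in both directions, against 1540 of all positions.

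**Figure D1:**
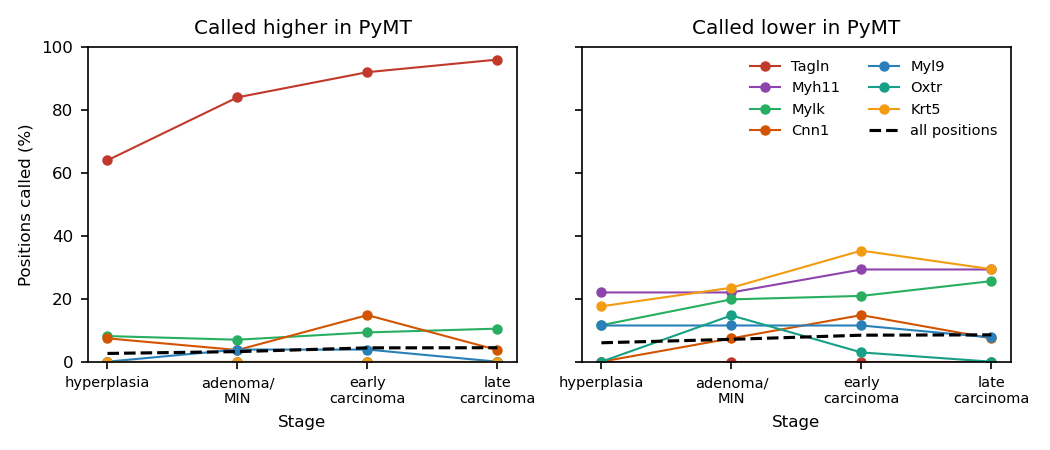
Share of each gene's CpG positions called higher (left) or lower (right) in PyMT at each stage, in percent, for the 7 genes with more than 6 positions, and the dashed line is the share among all positions. Tagln rises from 64% to 96% called higher, while Krt5, Myh11 and Mylk lie above the dashed line among the lower calls at every stage.

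Without any threshold, all 10 PyMT samples lay above all 12 FVB samples at 17 member positions, 15 of them in Tagln and 2 in Mylk. They lay below all FVB samples at 15, of which Myh11 and Mylk held 6 each, Myl9 2 and Krt5 1. Among all positions, 0.654% lay above in this way and 2.08% below. Where a CpG was measured on both strands, the differences had the same sign for 32 of 37 CpGs, with a median gap between strands of 1.73 points.

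**Figure D2:**
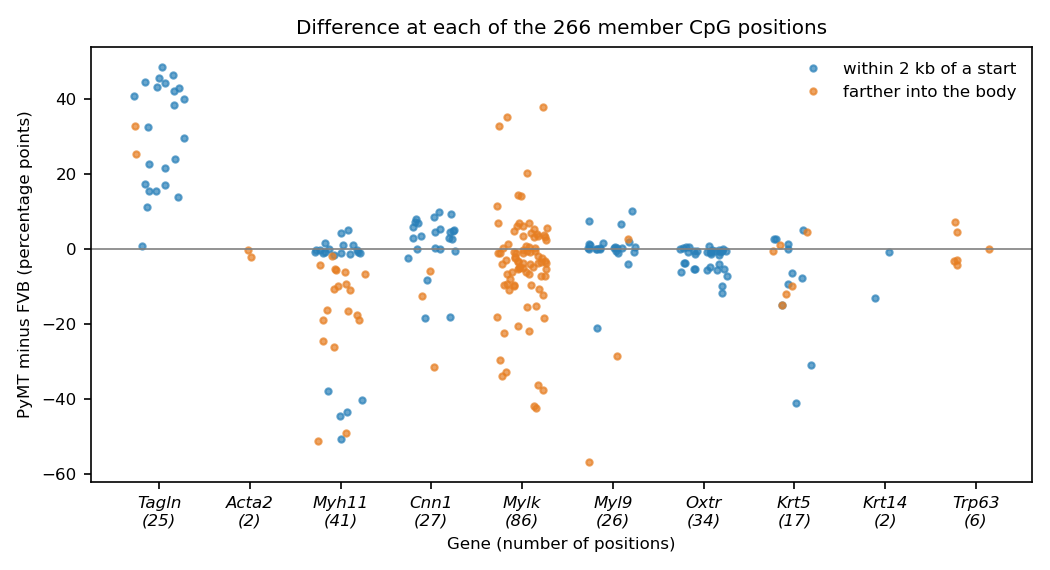
Difference in methylation, PyMT minus FVB averaged over the 4 weeks, in percentage points, at each of the 266 positions by gene, where blue points lie within 2 kb of a TSS and orange points farther into the body. All Tagln points lie above 0 and reach 48.5, while Myh11 and Myl9 hold the lowest points, at -51.2 and -56.7.

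The second comparison asked whether the mean of a gene's promoter (positions within 2 kb of a TSS), of the rest of its body, or of a CpG cluster differed between all PyMT and all FVB samples. Each feature needed at least 3 positions, and limma was fitted to all features of a kind with the 8 strain-by-week groups, at a Benjamini-Hochberg adjusted p under 0.05. Of the 6 member promoters tested, 1 was called higher and 3 lower, against 17.0% and 17.0% of all promoters. Of the 6 bodies, 5 were called lower, against 46.4% of all bodies, and the other, that of Trp63, was not called. Of the 26 clusters, 4 were called higher and 13 lower, against 16.6% and 31.6% of all clusters. The median difference over the 26 clusters was -3.56 points, where that over all clusters was -0.15. Acta2 and Krt14 had too few positions for any of these means, Mylk and Trp63 had no promoter position, and Oxtr had no body position outside its promoter.

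Tagln (chromosome 9, 45929628 to 45936058, minus strand), the actin-binding transgelin, gained methylation around its start. Its 23 promoter positions lay between 143 bp before and 152 bp after the TSS, upstream and in the 5′ UTR of exon 1, with a mean coverage of 79.5 reads. Their mean methylation was 44.7% and 35.7% in the 2 hyperplasia samples, 43.7%, 39.9% and 47.5% at adenoma/MIN, 57.6%, 49.8% and 46.8% at early carcinoma, and 54.1% and 56.0% at late carcinoma. In the 12 FVB samples it was 12.1% to 23.3%, with a median of 17.1%. Every PyMT sample lay above every control, and the lowest PyMT value was that of a hyperplasia sample. The difference was 30.2 points (SE 1.65, limma, adjusted p = 3.35e-10). It was 29.6 points without FVB week 8 replicate 2.

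The Tagln difference was present at the first stage, and its estimates were larger at the later ones. It was 24.1 points at hyperplasia (SE 3.48), 26.7 at adenoma/MIN (SE 3.11, or 24.3 without FVB week 8 replicate 2), 33.4 at early carcinoma (SE 3.11) and 36.8 at late carcinoma (SE 3.48). Its increase from weeks 6 and 8 to weeks 10 and 12, 9.71 points, did not pass (SE 3.30, limma, adjusted p = 0.169). The mean in FVB was 16.1% ± 2.15 (SD, n = 3) at week 6 and 18.3% ± 1.20 (SD, n = 3) at week 12. The difference was not even along the promoter. It ranged from 0.63 points at 142 bp before the TSS to 48.5 points at 74 bp before it, and 13 of the 23 positions differed by at least 25 points. The 7 positions from the TSS on had a median difference of 40.7 points and the 16 before it 30.9 points. The strands of the outermost CpG differed, with medians of 0% in both groups at 142 bp before the TSS and of 36.0% in PyMT and 17.5% in FVB at 143 bp.

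**Figure D3:**
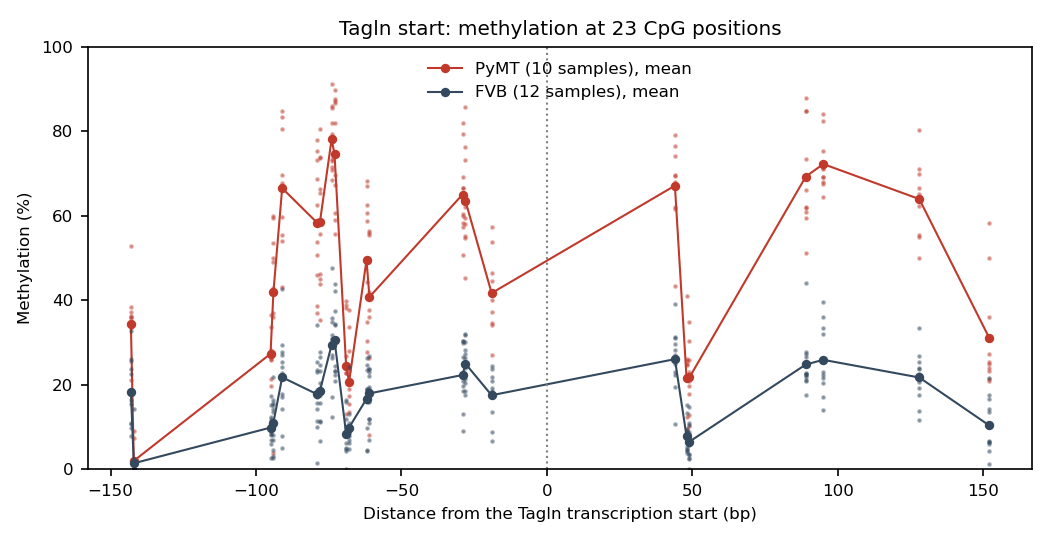
Methylation in percent at the 23 Tagln promoter positions against distance from the TSS in bp, where small points are samples, and lines join the means of the 10 PyMT and 12 FVB samples. The PyMT mean lies above the FVB mean at every position, by 0.63 to 48.5 points.

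The gain was also seen inside the gene. The 2 other Tagln positions lay in intron 1, 3537 and 3421 bp after the TSS, and both were called higher at all stages. At the first, methylation was 38.6% to 61.2% in PyMT (median 55.1%) and 2.08% to 47.4% in FVB (median 31.4%). At the second it was 67.8% to 91.8% in PyMT (median 82.6%) and 27.03% to 60.6% in FVB (median 49.8%). The groups overlapped at the first of these positions and not at the second. Relative coverage of the Tagln positions, as a ratio to the mean coverage of the sample, was 0.797 to 1.03 in PyMT and 0.935 to 1.19 in FVB, and its part in the result was not tested.

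Myh11 (chromosome 16, 14194527 to 14291408, minus strand), the smooth muscle myosin heavy chain, lost methylation. A cluster of 5 positions in intron 1, 1085 to 1161 bp after the TSS, had the largest difference of all member clusters. Its methylation was 14.1% and 20.6% at hyperplasia, 30.9%, 27.2% and 22.9% at adenoma/MIN, 19.0%, 28.4% and 19.4% at early carcinoma, and 12.6% and 14.0% at late carcinoma. In FVB it was 51.4% to 73.7%, with a median of 63.4%. The groups did not overlap at any stage, and the difference was -43.3 points (SE 2.86, limma, adjusted p = 3.18e-09). The Myh11 promoter mean, which includes these 5 positions, fell by 9.71 points (SE 0.81, limma, adjusted p = 4.18e-08). It fell by 27.5 points when only positions with at least 20 reads in every sample were averaged, and when only the 2 kb upstream were used it differed by 0.20 points and did not pass (limma, adjusted p = 0.867). The 16 positions 954 to 995 bp before the TSS were at medians of 1.20% in both groups and differed by 0.20 points (limma, adjusted p = 0.806).

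The rest of the Myh11 body was lower as well. A cluster of 4 positions across coding exon 22 and intron 22 was at 26.0% to 52.3% in PyMT (median 39.7%) and 67.2% to 87.3% in FVB (median 76.0%). The difference was -36.3 points (SE 2.74, limma, adjusted p = 1.33e-08), and it was -27.8 points at hyperplasia, -30.4 at adenoma/MIN (-27.5 without FVB week 8 replicate 2), -41.0 at early carcinoma and -46.1 at late carcinoma. Each of the 19 body positions had a lower mean in PyMT, by 2.03 to 51.2 points. The body mean fell by 16.3 points (SE 1.79, limma, adjusted p = 3.76e-07).

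Mylk (chromosome 16, 34784950 to 35002434, plus strand), the kinase that starts contraction, was measured only inside its body, at 86 positions, and moved in both directions. In intron 30, 5 positions 211057 to 211155 bp after the TSS were at 7.74% to 29.7% in PyMT (median 16.9%) and 43.7% to 67.1% in FVB (median 55.8%). The groups did not overlap, and the difference was -38.3 points (SE 2.78, limma, adjusted p = 8.64e-09). The 3′ part of Mylk also encodes telokin, a short protein made from a start of its own. No RefSeq start of Mylk, curated or predicted, lay closer to these positions than 65677 bp upstream. Starts of other genes were not searched.

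In intron 22, upstream of them, Mylk gained methylation. The 4 positions there were at 69.4% to 86.0% in PyMT (median 78.1%) and 41.9% to 67.9% in FVB (median 52.2%), without overlap, and differed by 24.7 points (SE 2.83, limma, adjusted p = 1.44e-06). Of these, 3 neighbouring positions gained 32.7 to 37.7 points and were called higher at all stages, while the other lost 6.62 points. The 2 positions of intron 25 were also higher, by 14.0 and 20.1 points. Elsewhere in the body the clusters of intron 9 (-11.8 points), exon 14 (-6.90), intron 2 (-7.07) and exon 24 with intron 23 (-5.07) were called lower. The call of intron 2 was lost in 11 of the 22 fits that left out 1 sample, at adjusted p-values of 0.0528 to 0.132 in limma. That of exon 24 was lost without PyMT week 6 replicate 1 (limma, adjusted p = 0.0538). In an exact permutation test within week, intron 2 no longer passed (adjusted p = 0.0532) and a cluster of intron 14, 5.29 points higher, did (adjusted p = 0.0314). The mean of the body fell by 4.12 points (SE 0.65, limma, adjusted p = 2.54e-05), and by 2.48 points when reads were pooled over positions (adjusted p = 0.0263). Another RefSeq gene, E130310I04Rik, overlaps 13 of the Mylk positions, all in clusters that were not called.

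**Figure D4:**
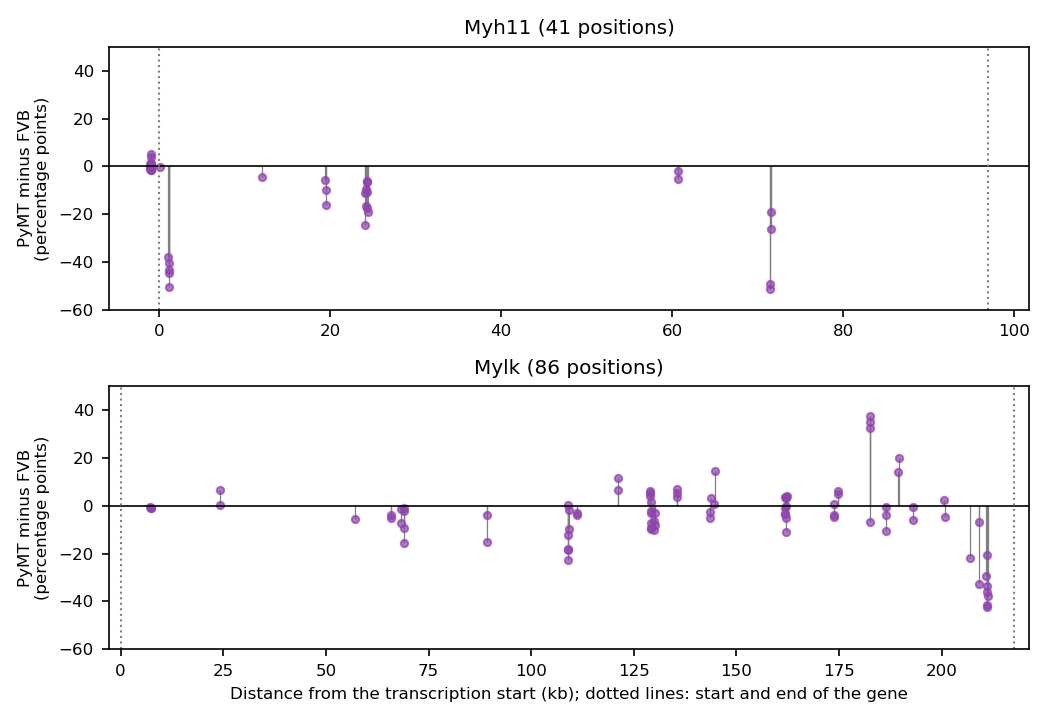
Difference in methylation, PyMT minus FVB in percentage points, at each measured position of Myh11 (top) and Mylk (bottom) against distance from the TSS in kb. Myh11 has its lowest points just inside the start and near exon 22, and Mylk rises to 37.7 in intron 22 and falls to -42.4 in intron 30.

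Cnn1 (chromosome 9, 22099253 to 22109221, plus strand), the actin-binding calponin, had a small gain near its start and a loss farther in. A cluster of 19 positions in intron 1, 750 to 899 bp after the TSS, was at 3.33% to 11.7% in PyMT (median 6.93%) and 1.41% to 3.83% in FVB (median 2.46%). These groups overlapped slightly, and the difference was 4.41 points (SE 0.55, limma, adjusted p = 3.58e-06). By stage it was 5.41 points at hyperplasia, 4.49 at adenoma/MIN (3.89 without FVB week 8 replicate 2) and 5.85 at early carcinoma. At late carcinoma it was 1.90 points and did not pass (limma, adjusted p = 0.247). The 4 positions of the next cluster had the largest difference in size, -5.57 points, but did not pass (SE 2.87, limma, adjusted p = 0.127). It did pass in limma with strands summed (-8.17 points, adjusted p = 0.0331), with gaps of up to 200 bp (-8.14 points, adjusted p = 0.0277), without PyMT week 10 replicate 1 (adjusted p = 0.0393) and without FVB week 8 replicate 1 (adjusted p = 0.0379). The promoter as a whole differed by 1.80 points and did not pass (limma, adjusted p = 0.0770). It passed without PyMT week 10 replicate 3 (2.28 points), FVB week 6 replicate 3 (2.12 points) or FVB week 10 replicate 2 (2.03 points), at adjusted p-values of 0.00533 to 0.0486 in limma. The 3 body positions, in introns 4 and 5, were at 62.1% to 80.2% in PyMT and 82.0% to 95.5% in FVB, a fall by 16.6 points without overlap (SE 2.06, limma, adjusted p = 1.57e-06). Their mean coverage was 27.2 reads.

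Myl9 (chromosome 2, 156775464 to 156781657, plus strand), the regulatory light chain, was almost unmethylated at its start and lost methylation in its body. The cluster of 18 positions across the TSS was at 0.92% to 2.89% in PyMT (median 2.02%) and 0.50% to 1.74% in FVB (median 1.15%). It was called higher, by 0.77 points (SE 0.20, limma, adjusted p = 0.00390). With gaps of up to 200 bp the cluster differed by 0.96 points and was not called (limma, adjusted p = 0.0658). The promoter mean differed by 0.18 points (limma, adjusted p = 0.851). The 3 body positions fell by 27.5 points (SE 2.12, limma, adjusted p = 5.11e-09). This fall was carried by the 2 positions of intron 2. At 3448 bp after the TSS methylation was 9.03% to 29.1% in PyMT (median 15.2%) and 60% to 83.7% in FVB (median 73.3%). The position in the 3′ UTR had medians of 82.7% in both groups.

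Acta2 (chromosome 19, 34240336 to 34255373, minus strand), smooth muscle actin, was covered at 2 positions, in intron 4 and coding exon 4, and neither was called at any stage. The intron position was at 61.1% to 86.0% in PyMT (median 81.7%) and 74.1% to 87.5% in FVB (median 80.8%). The exon position was at 57.1% to 93.9% in PyMT (median 79.6%) and 71.1% to 94.4% in FVB (median 78.8%). No position near the Acta2 start was covered in all samples, so its promoter was not analysed here.

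**Figure D5:**
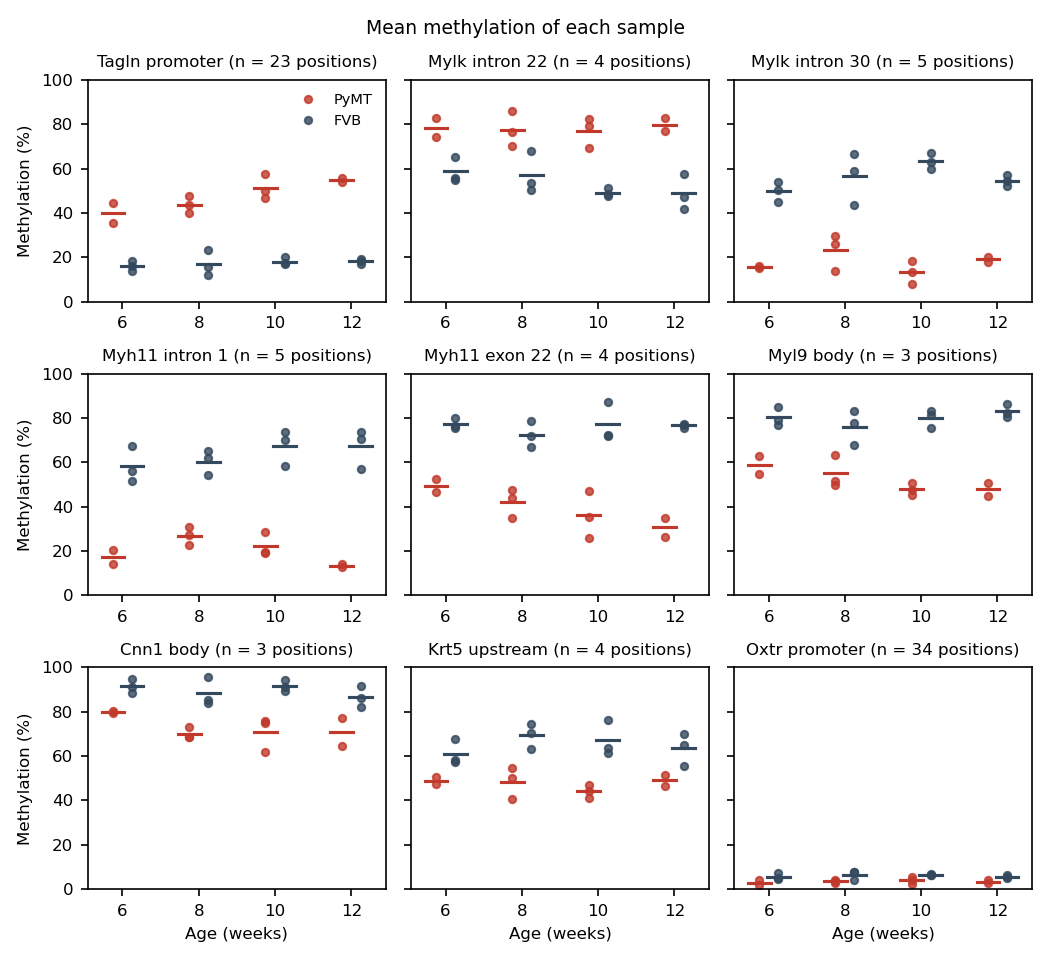
Mean methylation in percent of each sample (points) and of each group (bars) against age in weeks for 9 features of the member genes, PyMT in red and FVB in dark blue. PyMT lies above FVB for the Tagln promoter and Mylk intron 22 and below it for the other features, and the groups overlap in range only for Oxtr, at 1.78% to 5.40% against 4.05% to 7.70%.

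Oxtr (chromosome 6, 112473683 to 112489825, minus strand), the oxytocin receptor, had a nearly unmethylated promoter in both groups. Its 34 positions averaged 1.78% to 5.40% in PyMT (median 3.86%) and 4.05% to 7.70% in FVB (median 6.32%). The ranges overlapped, and the mean fell by 2.63 points (SE 0.52, limma, adjusted p = 4.93e-04). The largest cluster difference was in coding exon 1, at -4.43 points (SE 1.53, limma, adjusted p = 0.0233), and it no longer passed without PyMT week 6 replicate 1 (adjusted p = 0.0787) or PyMT week 12 replicate 1 (adjusted p = 0.0628). The counts of positions called lower were 0, 5, 1 and 0 from hyperplasia to late carcinoma, and none was called higher. Without FVB week 8 replicate 2 the 5 at adenoma/MIN became 0, and the difference of the exon 1 cluster at that stage went from -6.17 to -3.15 points. A cluster 850 to 996 bp before the TSS was not called (-0.92 points, limma, adjusted p = 0.0604). It passed in limma without FVB week 8 replicate 2 (-1.14 points, adjusted p = 0.00926) or FVB week 12 replicate 3 (adjusted p = 0.0345).

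Krt5 (chromosome 15, 101707069 to 101712905, minus strand), a keratin of basal cells, was lower in all 3 of its clusters. Its 11 promoter positions averaged 54.9% to 64.4% in PyMT (median 60.4%) and 56.1% to 76.6% in FVB (median 68.3%). They fell by 8.96 points (SE 1.74, limma, adjusted p = 4.43e-04) although the ranges overlapped. The cluster of 4 positions 1710 to 1766 bp before the TSS was at 40.4% to 54.7% in PyMT and 55.6% to 76.2% in FVB, without overlap, and fell by 17.6 points (SE 2.57, limma, adjusted p = 2.13e-05). That fall came from its outer positions, by 30.9 and 40.9 points, while the pair between them differed by 1.31 and 0.0014 points. The cluster in exon 1 fell by 7.17 points (limma, adjusted p = 0.00296). The cluster in exon 9, which holds the 6 body positions, fell by 5.32 points (limma, adjusted p = 3.40e-04). Its difference was -0.40 points at hyperplasia, where it did not pass (limma, adjusted p = 0.949). It was -6.73 at adenoma/MIN (-4.42 without FVB week 8 replicate 2), -8.18 at early carcinoma and -5.97 at late carcinoma.

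Krt14 (chromosome 11, 100203162 to 100207510, minus strand), the keratin that pairs with Krt5, was covered at 2 positions, both upstream. The gene has 2 curated TSSs, and distances are given to the nearer one. At 1653 bp before the TSS methylation was 50.9% to 77.1% in PyMT (median 63.0%) and 52.5% to 92.7% in FVB (median 61.9%), and the position was called at no stage. At 1746 bp before it methylation was 28.3% to 89.1% in PyMT (median 51.0%) and 44.5% to 79.4% in FVB (median 67.8%), and the position was called lower at late carcinoma only. The groups overlapped at both.

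Trp63 (chromosome 16, 25683765 to 25892088, plus strand), which encodes p63, was covered at 6 intron positions far from its starts. Their mean was 84.2% to 91.0% in PyMT (median 88.5%) and 82.2% to 91.7% in FVB (median 88.1%). The difference was 0.16 points (SE 1.27, limma, adjusted p = 0.919), and 1 position was called lower, at hyperplasia only. No promoter position of Trp63 was covered in all samples.

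The third comparison asked what changed from the premalignant (weeks 6 and 8) to the malignant stages (weeks 10 and 12). Among the 26 member clusters, 1 was called higher in malignant PyMT samples and none lower, against 2.02% and 1.23% of all clusters. It was the Tagln cluster, whose 5 premalignant samples lay at 35.7% to 47.5% and whose 5 malignant samples lay at 46.8% to 57.6%. The change was 11.3 points (SE 2.78, limma, adjusted p = 0.0349). The call was lost without PyMT week 6 replicate 2, week 8 replicate 1 or 2, week 10 replicate 1 or week 12 replicate 1 or 3. Without PyMT week 10 replicate 2 or 3, 2 clusters were called. Tested as promoters, 1 of 6 was called higher and none lower, against 930 and 60 of all 16407. It was Tagln, with the same 23 positions and change (SE 2.46, limma, adjusted p = 0.00837).

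The same step in FVB was 1.56 points for Tagln, and the excess of PyMT over FVB was 9.71 points (SE 3.73, limma, adjusted p = 0.278). No member cluster passed the test of this excess in limma, where 0.577% of all clusters were called higher and 0.271% lower. At an unadjusted p under 0.05 in limma there were 3 of the 26, against 10408 of all 84563 clusters. In FVB alone no cluster, member or other, was called between weeks 6 and 8 and weeks 10 and 12 in limma. There, 4 of the 26 were at an unadjusted p under 0.05, against 5582 of all 84563. The Myh11 exon 22 cluster changed by -12.4 points in PyMT from premalignant to malignant stages and did not pass (SE 4.08, limma, adjusted p = 0.125). The body of Myl9 changed by -9.07 points (SE 3.16, limma, adjusted p = 0.129).

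Other genes of the basal layer and of contraction were read from lists. Of 15 measured promoters of other contractile and myoepithelial genes, 4 were called higher and 3 lower, against 17.0% and 17.0% of all promoters, with a median difference of -0.04 points against -0.01 over all promoters. The largest were Smtn, the actin-binding smoothelin (-25.0 points, 4.17% to 10.1% in PyMT and 27.3% to 37.0% in FVB), Kcnmb1, a potassium channel subunit of smooth muscle (-9.97 points), and Csrp1, a LIM protein (2.18 points). Of 13 promoters of other basal genes, 5 were called higher and 4 lower, against the same 17.0% and 17.0%, with a median of 0.20 points. Sox10, a transcription factor, fell by 16.02 points from 16.4% to 26.2% in FVB to 3.93% to 9.36% in PyMT, and Lama3, a laminin chain, rose by 1.35 points. None of these gained as much as Tagln, since the highest difference in the contractile list was 2.18 points and in the basal list 1.35 points.

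Lists of other cells that bulk tissue holds gave the following counts, to be read against 17.0% of all promoters called in each direction. Of the 15 luminal promoters the largest falls were in Ehf (-44.0 points), Prlr (-29.5) and Cldn4 (-28.9), with a list median of -2.47 points. Of 5 vascular smooth muscle and pericyte promoters, 1 was called higher, Cspg4 (12.4 points), and 1 lower, Kcnj8 (-0.43 points). The mean over this list was 5.44% to 11.8% in PyMT and 4.54% to 7.39% in FVB. Of 5 adipocyte promoters, 1 was called higher, Pparg (1.12 points), and 2 lower, Cidec (-21.6 points) and Lep (-14.3 points), and the list mean was 33.6% to 40.035% in PyMT and 40.8% to 47.0% in FVB. Of 3 endothelial promoters, Pecam1 was higher by 16.3 points, and Cdh5 (-15.99 points) and Kdr (-0.34 points) were lower. The part of these cells in the differences of the contractile and basal genes was not tested.

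A position call from pooled reads does not allow for the spread between mice. Pairs of samples of the same group differed by a chi-square that averaged 1.85 to 3.53 per position, where counting error alone would give about 1. With an F test for overdispersion no position was called at any stage, against 41, 52, 70 and 65 of the 266 at an unadjusted p under 0.05 from hyperplasia to late carcinoma. How many of all positions reached that unadjusted p was not counted.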

How the data were processed

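DNA methylation was measured by ERRBS in 10 PyMT and 12 FVB mammary samples, 1 mouse each, grouped by the strain, week and replicate of their labels. Alignment was by Bismark against mm10. For every CpG cytosine with at least 10 reads, the authors deposited the unnormalized count of reads and the percent read as C and as T, strands apart. Methylated and unmethylated counts were recovered as coverage times each percent, rounded. All positions fell on a CpG of GRCm38.p6, the build of mm10, whose curated RefSeq transcripts gave the genes.

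Positions were tested per stage by logistic regression, after the authors' methylKit design. Means of promoters, bodies and clusters, unweighted over positions, were tested with limma 3.58.1 (R 4.3.3) over 16407 promoters, 11438 bodies and 84563 clusters. Position intervals were not drawn. The coverage of 60.2 to 79.2 reads is a mean per sample and bears on counting error only, and some member positions had fewer reads. Those of Myh11 averaged 43.8 reads, with a lowest value of 10. Adjusted p-values are Benjamini-Hochberg values. P-values from limma and the permutations measure the spread between these mice, while the q-values of positions come from pooled reads and leave that spread out. The methods were tested on simulated data. The genes and lists were chosen with earlier results of these data known. All 10 genes are named, and from each other list the 3 genes with the largest called promoter difference, or fewer where fewer were called. Some listed genes are not reported here. Alternatives were other coverage minimums, summed strands, pooled reads, a logit scale, overdispersion, a replicate block, exact permutation within week, other promoter and cluster definitions, and each sample left out. Python 3.11.15 was used with pandas 2.3.3, SciPy 1.17.1 and NumPy 2.4.6. Expression was not analysed here.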

Additional observations from a re-analysis of the deposited data

Results flagged for a closer look

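A sample was looked at again where, among the 10 PyMT samples, its gap to the next value exceeded the critical share of their range in Dixon's test. This was asked of 38 promoters, bodies and clusters, and chance alone picks about 1 in 20. In the Mylk cluster of intron 21, PyMT week 12 replicate 3 was at 22.9%, where the next PyMT sample was at 7.41% and the median at 2.59%. In the Myh11 cluster 954 to 995 bp before the TSS, PyMT week 10 replicate 2 was at 5.69%, where the next PyMT sample was at 2.71% and the median at 1.20%. With all samples, neither cluster was called between PyMT and FVB. The Mylk cluster did pass in limma without PyMT week 12 replicate 3 (adjusted p = 0.0261). The Myh11 cluster passed in no fit that left out 1 sample.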

How the results depend on the processing

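Counts of member positions called depended most on how calls were made. From hyperplasia to late carcinoma, a difference of at least 25 points left 14, 18, 20 and 21 called higher, and 17, 28 and 28 called lower from adenoma/MIN on. Scaling for overdispersion, with a chi-square test, moved the counts to 15 higher and 17 lower at hyperplasia and 16 higher and 17 lower at adenoma/MIN, and with an F test all 8 counts were 0. Of all 1140639 positions the chi-square test called 38874 at hyperplasia and 48867 at adenoma/MIN, in either direction, and the F test called none. With at least 20 reads, 29 positions were called lower at early carcinoma. With the strands of each CpG summed, 24, 22, 28 and 25 were called higher and 25, 39, 43 and 42 lower from hyperplasia to late carcinoma. Leaving out 1 sample gave 19 to 26, 24 to 30, 30 to 37 and 27 to 34 called higher and 19 to 30, 22 to 44, 37 to 43 and 36 to 42 called lower, and the 22 was without FVB week 8 replicate 2. For these settings other than overdispersion, and for the replicate block, calls over all positions were not counted, except without FVB week 8 replicate 2.

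Called bodies numbered 3 with at least 20 reads or at least 5 positions per body, and lower clusters 8 with at least 5 positions, since fewer features were then tested. Leaving out 1 sample gave 1 to 2 promoters called higher, the second being Cnn1 without PyMT week 10 replicate 3, FVB week 6 replicate 3 or FVB week 10 replicate 2. It gave 0 to 2 clusters called between malignant and premalignant PyMT, and the logit scale gave 0. Directions turned for the promoters of Myh11 and Myl9 and the body of Trp63. The Myh11 promoter went from -9.71 to 0.20 points when only the 2 kb upstream were used, because the intron 1 cluster then falls outside. Trp63 was at -0.59 points with at least 20 reads, -1.55 with pooled reads and -0.58 to 0.91 without 1 sample. Leaving out FVB week 6 replicate 2 gave -0.28, FVB week 8 replicate 2 gave -0.29, FVB week 10 replicate 3 gave -0.10, FVB week 12 replicate 1 gave -0.28, PyMT week 6 replicate 2 gave -0.24, PyMT week 8 replicate 1 gave -0.25, PyMT week 10 replicate 3 gave -0.04 and PyMT week 12 replicate 1 gave -0.58. The Myl9 promoter was at -0.05 without FVB week 8 replicate 1 and -0.12 without FVB week 10 replicate 1, of a range of -0.12 to 0.44.

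The Tagln promoter difference kept its direction and call under every alternative, at 29.1 to 31.4 points without 1 sample. Exact permutation within week gave it an adjusted p of 0.000195. Its unadjusted p in that test, 2.5e-05, was the smallest that the 40000 arrangements allow. The Myh11 and Oxtr promoters had the same values. Replicate numbers are shared by the strains, but deviations of same-numbered samples had correlations of -0.018 to 0.013 over 10 pairs. These showed no pairing of the mice by number but cannot exclude one. With a replicate block, 22, 29, 34 and 33 positions were called higher and 21, 38, 42 and 40 lower, and no call of a promoter, body or leading cluster changed.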
